A study of Homo sapiens with 2 samples.

Results

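The Kruppel-like factors described here are 10 genes, KLF2, KLF3, KLF4, KLF5, KLF6, KLF7, KLF9, KLF10, KLF11 and KLF13, out of 19775 genes named on the arrays. They were taken as every probe set whose platform annotation gives 1 of these symbols and no other, which gave 32 of the 54675 probe sets. RNA came from stable populations of Panc1, an established line from a human pancreatic ductal adenocarcinoma, and each population had 1 Affymetrix array. The Panc1/syk-wt population was transfected with wild-type SYK, a cytoplasmic tyrosine kinase, and the Panc1/mock population with the vector alone. Both were kept under hygromycin in standard culture and harvested while subconfluent, and the series title calls the mock cells drug-resistant. The promoter that drives the introduced syk and the number of clones in each population are not given in the sources used here.

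Kruppel-like factors are transcription factors that bind GC-rich and CACCC-type DNA through C2H2 zinc fingers at the C terminus. Their N-terminal parts differ and set what they do: KLF2, KLF4, KLF5, KLF6 and KLF7 mostly activate genes with acetyltransferases, KLF9, KLF10, KLF11 and KLF13 repress through SIN3A, and KLF3 represses through CtBP. Several family members respond within hours to serum, TGF-beta or stress. In gut epithelium KLF4 and KLF5 are known for opposite roles, KLF4 in arrest and differentiation and KLF5 in proliferation.

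Values are RMA signals on the log2 scale (background-subtracted, quantile-aligned and summarised per probe set), and each difference is syk minus mock. Each gene is represented by the probe set that was brightest on average, and genes were counted when that average reached 4.25, the 50th percentile of all probe sets. Past 2-fold means an absolute log2 difference of 1 or more. Each group had 1 array, so neither a replicate error nor a test exists, and population, RNA preparation and array cannot be told apart. Partial guides to precision are the pooled SD of 0.35 between the differences of probe sets of 1 gene, over 6028 genes, and the 18 hybridisation spike probe sets, which differed by between -0.22 and 0.14. Neither covers variation between cultures, and the spread between probe sets of 1 gene need not be technical alone. A signal of 4.77, the highest among 27 control probe sets for bacterial transcripts, is used below as the level of dim signal. The arrays had medians of 4.24 (syk) and 4.26 (mock). The 3' minus 5' difference of the ACTB control probe sets was 2.37 on the syk array and 1.95 on the mock array, and the part of this gap in the values below was not tested. The brightest SYK probe set read 4.73 on the syk array and 4.27 on the mock array, both dim, and the other 3 differed by -0.27, -0.07 and -0.09, so each direction rests on the labels. Of 7 ductal epithelium markers on the arrays, 7 lay above 4.77. On the syk array 2 of them were past 2-fold lower (3.65% of all genes were), and 5 were under 2-fold. Their median was -0.49, beside 0.01 over all genes. KRT19 differed by -1.45, MUC1 by -1.04, KRT8 by -0.76, KRT7 by -0.49 and KRT18 by -0.23. SOX9 (0.34) and EPCAM (0.30) had the opposite sign. Probe sets ran from -1.45 to -0.37 for KRT19, from -1.18 to -0.88 for MUC1 and from -0.49 to 0.16 for KRT7. The list summed to 63.55 on the syk array and 66.88 on the mock array, and its part in the values below was not tested.

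KLF4 was higher on the syk array, and KLF13 and KLF2 were lower. All 10 members passed the filter on dim genes, and 3 of them were past 2-fold, against 7.26% of the 12814 genes tested. In the higher direction this was 1 of 10 (3.61% of all genes) and in the lower direction 2 of 10 (3.65%). The members were chosen with earlier results of these data known, so these shares are a description and no test. The median difference over the members was -0.19, beside 0.01 over all genes, and the median absolute difference was 0.39, beside 0.30. The other 7 members were under 2-fold, and KLF5 and KLF9 were dim on both arrays. In bulk RNA, fewer cells that express a gene and less RNA per cell cannot be told apart.

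**Figure D1:**
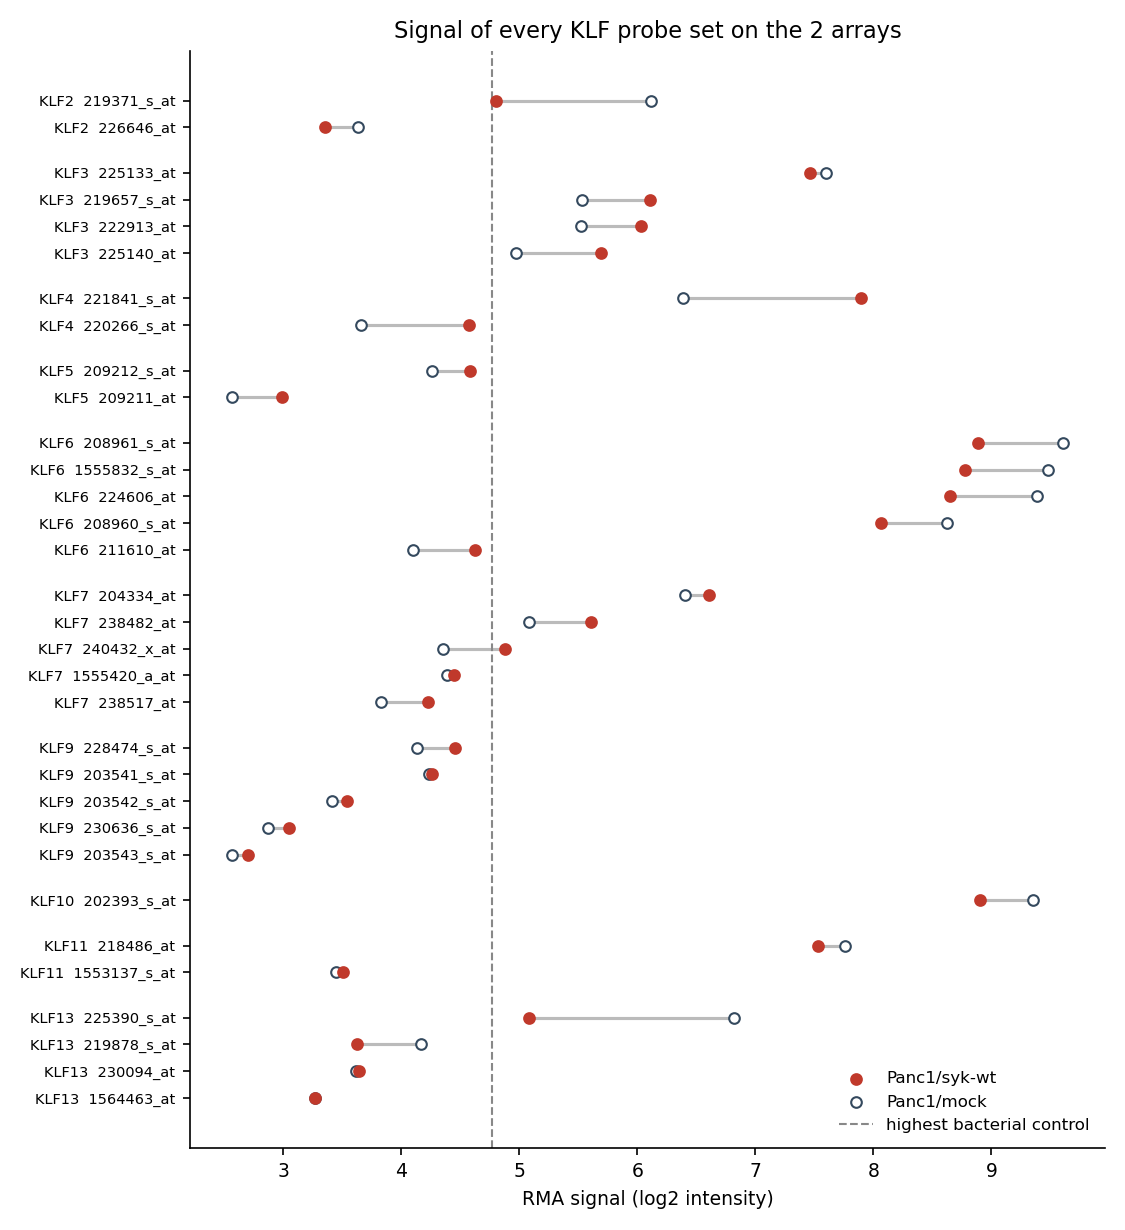
RMA signal (log2 intensity, x axis) of each of the 32 KLF probe sets (rows, grouped by gene and sorted by brightness) on the Panc1/syk-wt array (filled) and the Panc1/mock array (open). The dashed line is the highest bacterial control, 4.77, which 16 probe sets do not exceed on either array, and both points of the lowest KLF13 probe set coincide at 3.27.

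KLF4, a factor known for growth arrest and epithelial differentiation and as a reprogramming factor, was 2.85-fold higher. Its brighter probe set read 7.90 on the syk array and 6.38 on the mock array, a log2 difference of 1.51. The other read 4.57 on the syk array and 3.66 on the mock array. That second probe set is higher on the syk array as well, but it is dim on both arrays and gives no fold. Of the 12814 genes, 2.70% had an absolute difference at least as large as that of KLF4.

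KLF13, a repressor that in T lymphocytes is also known to switch on the chemokine gene CCL5, was 3.34-fold lower, with the largest difference among the 10 members. Its brightest probe set read 5.08 on the syk array and 6.82 on the mock array, a difference of -1.74, and 1.83% of all genes differed by as much. The other 3 probe sets were dim on both arrays: the brightest of them read 3.63 on the syk array and 4.17 on the mock array, the next 3.64 and 3.62 in the same order, and the last 3.27 on both. The lower signal was thus carried by the single KLF13 probe set above 4.77, and the mean over all 4 was -0.56.

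KLF2, known for quiescence of T cells and for the response of endothelium to flow, was 2.48-fold lower. Its brighter probe set read 4.81 on the syk array and 6.12 on the mock array, a difference of -1.31, so that the syk value lay just above the level of dim signal. The other read 3.36 on the syk array and 3.63 on the mock array. Averaged over both, the difference was -0.79, under 2-fold. An absolute difference of at least that of the brighter probe set was seen in 3.84% of all genes. Endothelial and blood cell markers, the cells in which KLF2 is best known, were dim: 4 of 4 endothelial markers (PECAM1, CDH5, VWF and TEK) and 3 of 4 blood cell markers (PTPRC, CD3E and CD14) did not exceed 4.77 on either array. HBB, the exception, lay above that level on both arrays with a difference of 0.10. Summed over the list, the endothelial log2 signals came to 15.9 on the syk array and 16.2 on the mock array, and the blood cell signals to 16.36 on the syk array and 15.96 on the mock array. Fibroblast markers were at or below 4.77 for 6 of 7 genes and acinar and endocrine markers for 3 of 3. The fibroblast list summed to 33.0 on the syk array and 33.5 on the mock array, and the acinar and endocrine list to 9.38 on the syk array and 9.40 on the mock array. The fibroblast exception was COL1A1, at 10.1 on the syk array and 11.2 on the mock array.

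All 3 probe sets past 2-fold, out of 32 (4.14% of the 41097 probe sets with 1 symbol), carry the suffix _s_at, which marks probes that match more than 1 transcript. That suffix is common here, on 17 of the 32. KLF4, KLF9 and KLF10 have no probe set outside that class, and those of KLF2 and KLF13 without the added letter were dim on both arrays. When only names ending in plain _at were used, 4 members remained past the filter and 0 were past 2-fold, against 7.43% of all genes under that setting. Whether other transcripts add to these signals was not tested.

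**Figure D2:**
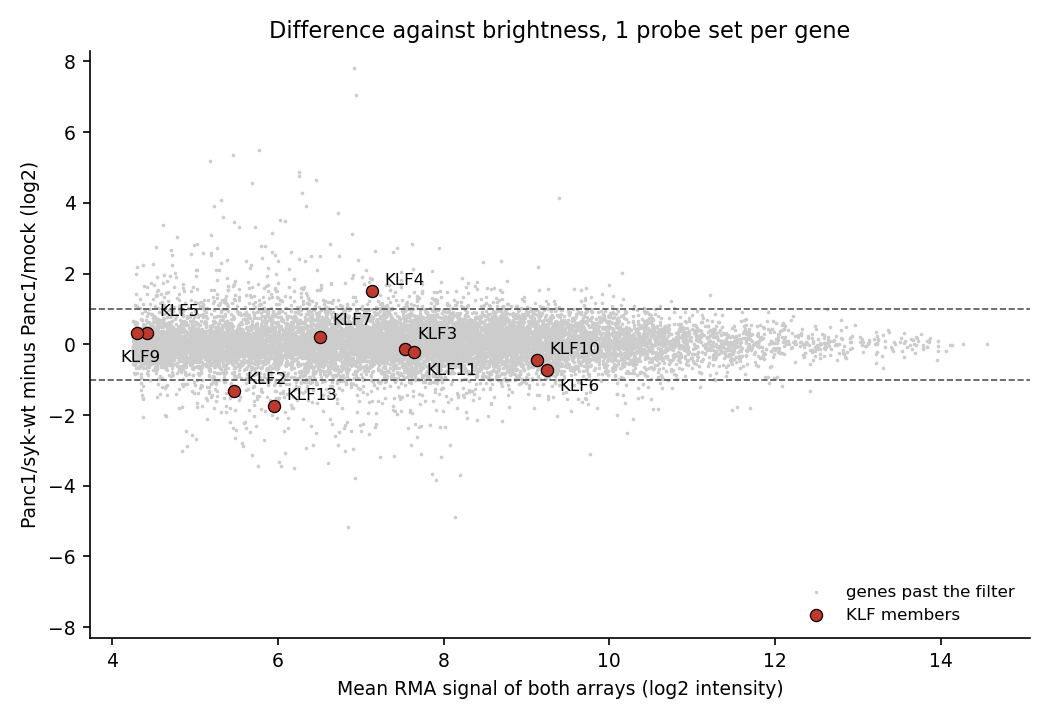
Log2 difference, Panc1/syk-wt minus Panc1/mock (y axis), against the mean RMA signal of both arrays (log2 intensity, x axis) for 12814 genes past the filter (grey) and the 10 KLF members (red), each by its brightest probe set. Dashed lines mark 2-fold; KLF4 lies above the upper line at 1.51, and KLF2 and KLF13 below the lower one at -1.31 and -1.74.

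The sequence before the transcription start of the members past 2-fold is given because Kruppel-like factors bind GC boxes and CACCC elements, also in each other's genes, and because KLF2 transcription is known to be driven by MEF2 factors. The 250 bases upstream of the start are from RefSeq (GRCh38.p14), 5' to 3' on the gene's strand: chr19:16324576-16324825 on the plus strand for KLF2, chr9:107489770-107490019 on the minus strand for KLF4 and chr15:31326585-31326834 on the plus strand for KLF13. Capitals mark the GC box CCGCCC and the element CACCC on either strand, and the MEF2 motif.
KLF2: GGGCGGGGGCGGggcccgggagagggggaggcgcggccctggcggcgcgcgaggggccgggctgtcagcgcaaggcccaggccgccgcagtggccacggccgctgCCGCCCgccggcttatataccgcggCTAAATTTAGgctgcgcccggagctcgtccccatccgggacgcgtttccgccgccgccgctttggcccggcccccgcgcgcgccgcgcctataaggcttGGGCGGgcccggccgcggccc
KLF4: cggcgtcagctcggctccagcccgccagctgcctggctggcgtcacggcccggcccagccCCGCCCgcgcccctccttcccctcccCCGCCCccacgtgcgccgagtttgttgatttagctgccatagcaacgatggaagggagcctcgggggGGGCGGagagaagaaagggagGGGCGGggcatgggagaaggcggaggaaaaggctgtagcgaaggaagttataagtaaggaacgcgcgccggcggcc
KLF13: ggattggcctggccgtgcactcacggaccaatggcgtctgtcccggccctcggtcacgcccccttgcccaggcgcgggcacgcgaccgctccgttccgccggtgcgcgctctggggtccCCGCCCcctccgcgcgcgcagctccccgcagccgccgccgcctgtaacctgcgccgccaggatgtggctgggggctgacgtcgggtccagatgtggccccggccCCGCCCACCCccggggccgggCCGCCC

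The KLF2 and KLF4 windows each held 4 GC boxes and 0 CACCC elements. The KLF13 window held 3 GC boxes and 1 CACCC element, which overlaps a GC box. At least 1 GC box was held by 42.6% of all 35116 RefSeq windows of this length, and at least 1 CACCC element by 54.7%. The MEF2 motif was found in the KLF2 window, with its first base at position -120 from the start, and in 2.80% of all windows. RefSeq windows were matched for 8 of the 10 members, 13 windows in all, and KLF2 was the only one of the 8 with the MEF2 motif. Counted per gene, in any of its windows, a GC box was found in 7 of the 8 members and CACCC in 4. Some members had several windows, KLF7 having 4, so these counts cannot be set against the shares per window given above. A match is a description of the letters and no sign of binding.

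Among the other members of the activator group, KLF6 was lower on the syk array and KLF7 slightly higher, while KLF5 was dim. KLF6, an immediate-early factor that induces CDKN1A and is lost or spliced in several carcinomas, had 4 bright probe sets. They read 8.89, 8.77, 8.65 and 8.07 on the syk array, against 9.61, 9.48, 9.39 and 8.63 on the mock array in the same order. Every bright probe set was lower on the syk array, by -0.72, -0.71, -0.74 and -0.56, or 1.65-fold for the brightest. The remaining probe set was dim at 4.62 on the syk array and 4.10 on the mock array and had the opposite sign. A difference as large as that of KLF6 was seen in 15.5% of all genes, and the 4 bright probe sets lay within a range of -0.74 to -0.56.

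KLF7, a factor studied mainly in neurons, read 6.61 on the syk array and 6.41 on the mock array by its brightest probe set, a difference of 0.20. The other 4 probe sets were higher on the syk array too, by 0.53, 0.53, 0.06 and 0.40 in order of brightness, and 2 of them were dim on both arrays. All of these are under 2-fold.

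KLF5, the proliferative factor of epithelial crypts, read 4.59 on the syk array and 4.26 on the mock array by its brighter probe set. Its second probe set read 2.99 on the syk array and 2.57 on the mock array. Both probe sets were at or below 4.77 on both arrays, so no fold is given.

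In the SIN3A-binding group, KLF13 was past 2-fold, KLF10 and KLF11 were under 2-fold and KLF9 was dim. KLF10, a gene induced early by TGF-beta that represses SMAD7, had 1 probe set, which read 8.90 on the syk array and 9.36 on the mock array. The difference of -0.45 is 1.37-fold lower, and 32.6% of all genes differed by at least as much. KLF11, a second gene induced early by TGF-beta with variants linked to early-onset diabetes, read 7.53 on the syk array and 7.76 on the mock array, a difference of -0.23. Its other probe set was dim, at 3.51 on the syk array and 3.45 on the mock array. KLF9, which is induced by glucocorticoid and thyroid hormone, had 5 probe sets that ran from 2.71 to 4.46 on the syk array and from 2.56 to 4.23 on the mock array. All 5 were dim on both arrays, with differences between 0.03 and 0.32, and give no fold.

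KLF3, the CtBP-binding repressor, was the member whose probe sets disagreed while bright on both arrays. The brightest read 7.46 on the syk array and 7.60 on the mock array, a difference of -0.14. The other 3 read 6.11, 6.03 and 5.70 on the syk array, against 5.53, 5.52 and 4.97 on the mock array in the same order, and differed by 0.58, 0.51 and 0.73. The sign for KLF3 therefore depends on the probe set: the mean over the 4 was 0.42 and their median 0.54, all under 2-fold. Where these probe sets lie in the transcript was not analysed here. The antisense transcript KLF3-AS1, named after its values were seen, was dim, with 3.99 on the syk array and 4.22 on the mock array by its brighter probe set.

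By role, the activator group of 5 members had 1 past 2-fold higher (3.61% of all genes) and 1 lower (3.65%), with a median of 0.20. The SIN3A-binding group of 4 had 1 past 2-fold lower, with a median of -0.34. Both medians include a gene dim on both arrays, KLF5 (0.32) in the activator group and KLF9 (0.32) in the SIN3A-binding group. In groups this small the sign of a median can rest on such a gene. These groups hold few genes, and the difference between them was not tested.

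**Figure D3:**
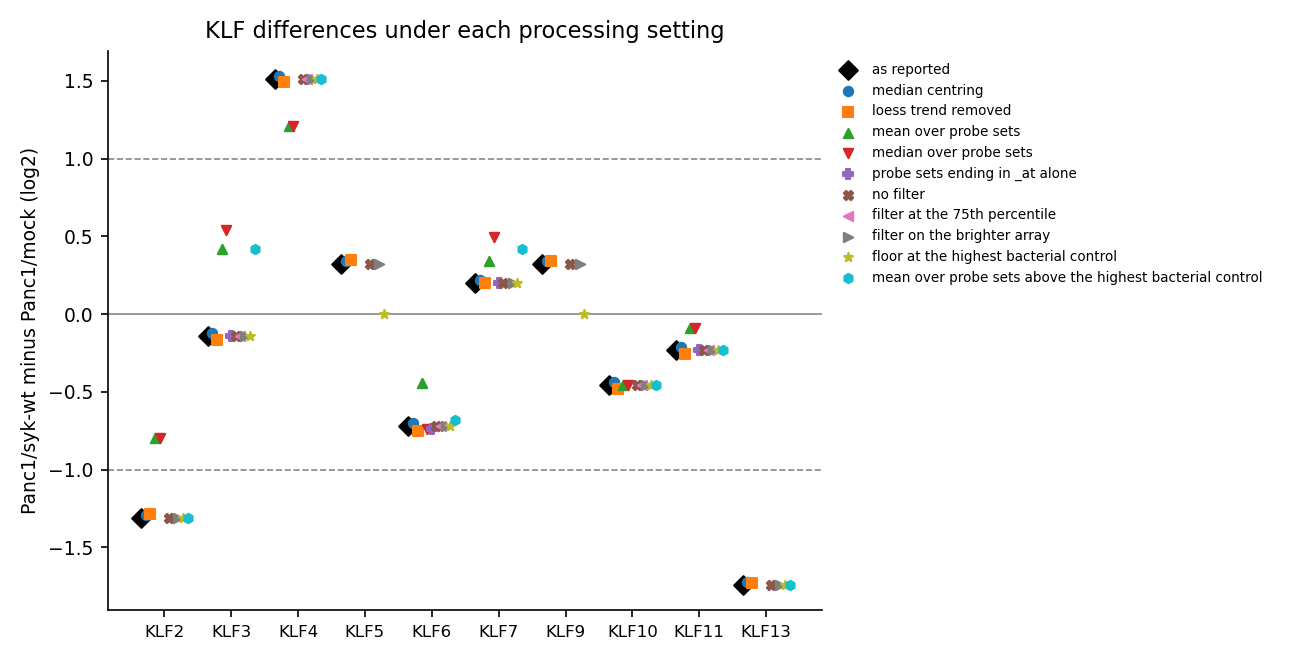
Log2 difference, Panc1/syk-wt minus Panc1/mock (y axis), of each KLF member (x axis) as reported (black diamonds) and under 10 other processing settings (coloured symbols). A missing symbol means that the gene did not pass the filter there or had no probe set of the kind that the setting uses. The latter holds for KLF4, KLF9 and KLF10 with probe sets ending in _at alone. Dashed lines mark 2-fold. KLF4 stays between 1.21 and 1.53 wherever it has a value, KLF2 moves to -0.79 when its probe sets are averaged, and KLF3 changes sign.

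Of 7 other KLF genes on the arrays, 4 passed the filter and 0 of these were past 2-fold, against 7.26% of all genes, with a median of 0.04. On both arrays 5 of the 7 were dim, which leaves KLF15 and KLF16. KLF16, a repressor of the SIN3A-binding group, read 6.94 on the syk array and 6.91 on the mock array. KLF15, known for control of amino acid and glucose metabolism, read 5.05 on the syk array and 4.99 on the mock array. KLF14 (a difference of 0.12) and KLF12 (-0.07) were dim on both arrays.

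SP factors are relatives that bind the same GC boxes. Of 6 past the filter 0 were past 2-fold, against 7.26% of all genes, and 5 differed below 0, as did 6124 of the 12814 genes. Their median was -0.26, beside 0.01 over all genes, and without replicates this shift cannot be judged. The ubiquitous factor SP3 read 8.74 on the syk array and 9.12 on the mock array by its brightest probe set. However, its 5 probe sets differed by between -0.38 and 0.54. SP4, which is known mainly from neurons, read 7.61 on the syk array and 7.33 on the mock array, and its other probe set differed by -0.03. SP6 differed by -0.29, with only its mock value above 4.77, and SP5 by -0.32 between dim values.

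Of 11 corepressors and coactivators that bind family members, all past the filter, 0 were past 2-fold and the median was -0.03. With 7.26% of all genes past 2-fold, a count of 0 in a list of this size is near the background. SIN3A, the scaffold bound by KLF9, KLF10, KLF11 and KLF13, differed by -0.35, its paralog SIN3B by 0.31, the deacetylase HDAC3 by 0.31 and the acetyltransferase CREBBP by 0.30. Of 9 ubiquitin ligases and deubiquitinases that act on these proteins, 0 were past 2-fold and the median was 0.05. The deubiquitinase ATXN3 had the largest difference, at 6.36 on the syk array and 5.51 on the mock array (0.85), although its 7 probe sets ran from -0.11 to 0.89. The ubiquitin ligase component VHL differed by -0.49, the KLF5 ligase WWP1 by -0.30 and the ligase SMURF2 by -0.18.

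Of 13 genes that act upstream of KLF transcription, all past the filter, 0 were past 2-fold, against 7.26% of all genes. A count of 0 in a list of this size is near that background. Of the 13, 11 differed below 0, beside 6124 of all 12814 genes. Their median was -0.25, beside 0.01 over all genes. The SD between probe sets does not measure the spread of a list median, and no replicate exists to judge this shift. Among the MEF2 factors, which drive KLF2 in endothelium, none was past 2-fold. MEF2D read 5.96 on the syk array and 6.75 on the mock array (-0.79), MEF2C read 7.93 on the syk array and 7.34 on the mock array (0.60), and MEF2A, named after its values were seen, differed by -0.19. Probe sets ran from -0.79 to 0.03 for MEF2D, from 0.07 to 0.60 for MEF2C and from -0.20 to 0.27 for MEF2A. TGFBR1, the type I TGF-beta receptor, differed by -0.72 by its brightest probe set, with the highest of its 3 at 0.05. The glucocorticoid receptor NR3C1 differed by 0.66, with 5 probe sets between -0.10 and 0.66.

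**Figure D4:**
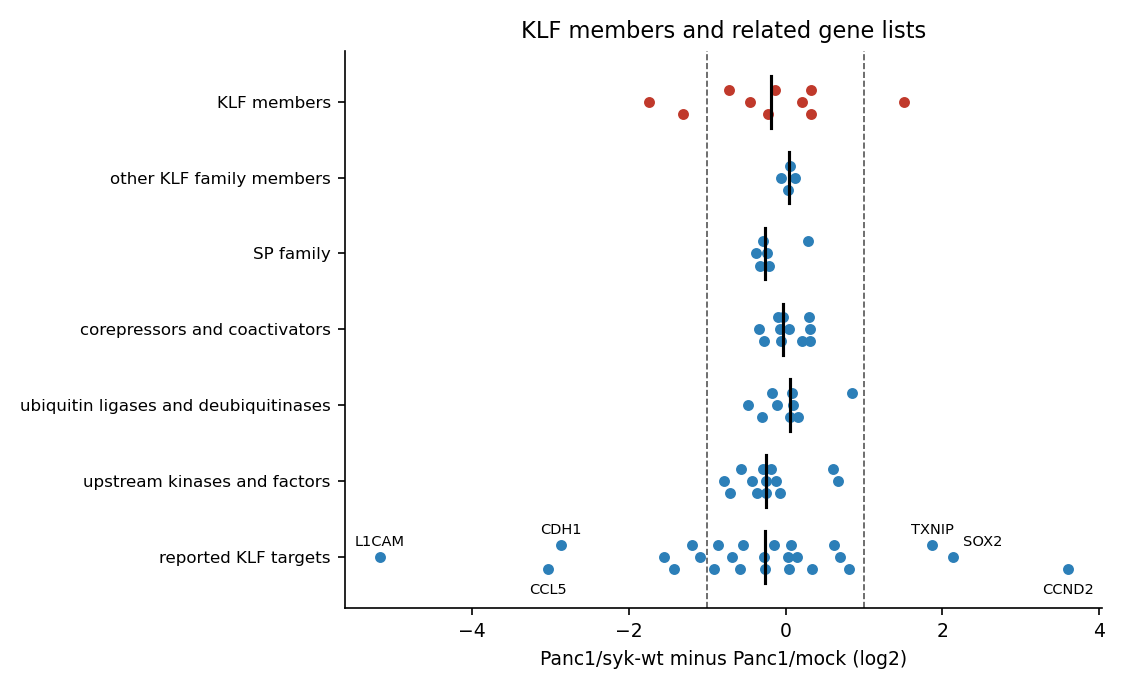
Log2 difference, Panc1/syk-wt minus Panc1/mock (x axis), of the KLF members and of 6 related lists (rows), 1 point per gene past the filter, with the list median as a black bar and 2-fold as dashed lines. Among these lists, points past 2-fold are seen in the KLF members (3 of 10) and in the reported targets (10 of 26), beside 7.26% of all genes. Members and lists were chosen with earlier results of these data known. Differences of CCND2, CDH1 and L1CAM rest on 1 dim value.

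Genes reported as KLF targets in human or mouse cells went both ways. Of 34 listed, 26 passed the filter, 3 were past 2-fold higher (3.61% of all genes were) and 7 past 2-fold lower (3.65%), and the median was -0.27. This list was chosen with earlier results of these data known, so the counts are no measure of enrichment. The pluripotency factor SOX2, which works with KLF4 in reprogramming, read 7.20 on the syk array and 5.07 on the mock array, 4.38-fold higher, and the smallest difference among its 4 probe sets was 0.04. TXNIP, a thioredoxin inhibitor, read 9.15 on the syk array and 7.29 on the mock array, 3.65-fold higher, and its 3 probe sets differed by at least 1.87. The cyclin gene CCND2 read 7.13 on the syk array, against a dim mock value, and was higher by at least 5.16-fold, while the lowest of 4 probe sets showed a difference of 0.

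CCL5, the chemokine gene known as a KLF13 target in T cells, read 5.30 on the syk array and 8.33 on the mock array, 8.16-fold lower, and its 3 probe sets differed by between -3.98 and -3.03. L1CAM, an adhesion molecule reported as a target of mouse Klf7, was at least 25.4-fold lower, and CDH1 (E-cadherin), reported as activated by KLF4, at least 2.98-fold lower. PDGFA, a growth factor reported as a KLF5 target, read 5.93 on the syk array and 7.49 on the mock array, 2.94-fold lower, with its other probe set at a difference of 0.38. ENG, a TGF-beta co-receptor reported as a KLF6 target, read 5.66 on the syk array and 6.86 on the mock array, 2.30-fold lower, with its other probe set at a difference of 0. Fatty acid synthase, FASN, was 2.70-fold lower and the collagen chain COL1A1 2.13-fold lower. Probe sets of L1CAM, CDH1, FASN and COL1A1 disagreed in size, the weakest differing by -0.57, -0.46, -0.19 and -0.09 in that order. The classical cell cycle targets under 2-fold were named after their values were seen. CDKN1A read 7.71 on the syk array and 7.99 on the mock array, and CCND1 read 7.95 on the syk array and 8.21 on the mock array. CCNE1 (0.80, with its other probe set at -0.09) and CDKN1C (-0.68) differed more, and CDKN1B (-0.15) and CCNB1 (0.04) less. Targets were listed without regard to whether a factor activates or represses them, and no link between a factor's difference and a target's was tested.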

How the data were processed

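RNA of 2 Panc1 populations was hybridised to 1 Affymetrix array each. The deposited values are taken as log2 intensities, 1 per probe set and array, since they run from 2.14 to 14.6. The submitters' processing notes name RMA, and its version and settings are not given in the sources used here. No detection calls were used. The platform annotation named the probe sets: 41097 had 1 symbol, 1801 several and 11777 none, and 0 symbols needed an update through RefSeq gene IDs (GRCh38.p14). Differences, filters and alternatives were computed with Python 3.11.15, pandas 2.3.3, numpy 2.4.6 and statsmodels 0.14.6, and the calculation was tested on simulated data. Fold changes against a dim value use 4.77 in its place and are written "at least". The members and lists were chosen with earlier results of these data known. All 10 members are named with every probe set. From each other list the members past 2-fold are named, or, with fewer than 4 of these, those with the largest absolute difference up to 4, exceptions being marked. The grouping by role was added later. For the markers of cell types only counts, sums and examples are given. The precision is limited by the number of arrays. Alternatives were median centring, loess (span 0.2), other summaries over probe sets, other filters and a floor. The mean over probe sets above 4.77 on an array was chosen after seeing the data. No array column was left unused.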

Additional observations from a re-analysis of the deposited data

How the results depend on the processing

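The count of 3 members past 2-fold became 1 of 7 past the filter with the mean over probe sets, against 4.82% of all genes. With their median it was 1 of 7 (5.75% of all genes), KLF4 being past 2-fold in both. It was 1 of 5 with a filter at the 75th percentile (6.05%) and 0 of 4 with probe sets ending in _at alone (7.43%). Under the other 6 alternatives it stayed at 3, against 4.96% to 7.38% of all genes. KLF4 was past 2-fold under all 9 alternatives that gave it a value (1.21 to 1.53), and KLF2 under 6 of 8, being at -0.79 in the others. KLF13 was past 2-fold under all 6 that gave it a value (-1.74 to -1.72). It did not pass the filter under the mean or the median over all its probe sets. Those differences, -0.56 and -0.27, were under 2-fold, so the 6 do not make KLF13 firmer than KLF2. The KLF3 difference, which is under 2-fold, turned positive under 3 of 10 (0.42 to 0.54), the means and median over its probe sets. KLF6 kept its sign under all 10 (-0.75 to -0.44). The median over the members ran from -0.34 to -0.09. The count over all genes, 930, became 562 with the mean over probe sets and 486 with that stricter filter. Fewer genes pass these filters, and averaging mixes dim with bright probe sets. Signal near background limits KLF5, KLF9 and the second probe sets of KLF2, KLF4 and KLF13. No paired analysis was possible because each group has 1 array.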
